A study of Mus musculus with 24 samples.

Results

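The undivided dental mesenchyme of the mouse mandibular first molar was compared between the cap stage (E13, group Cap_W) and the bell stage (E15, group Bell_W). These are 6 of the 24 RNA-seq libraries of the study, 3 at each stage, chosen by their labels, and all genes were tested. The mesenchyme was freed from the epithelium of ICR mouse tooth germs with dispase II and was not divided further. In the rest of the series the germs were divided with a fine needle into a lingual part (Cap_L, Bell_L) and a buccal part (Cap_B, Bell_B), with 3 libraries in each of these groups, and the cap stage parts were also cultured for 2 days, in 6 libraries that were not compared here. The labels give no genotype or treatment for these groups, and both stages share the same strain and the same enzyme. The study's methods give 36 embryos from 3 pregnant mice and do not say which embryos went into which library. They name both sequencing in triplicate and a pair of biological replicates, so it is uncertain whether the 3 libraries of a group are separate dissections, and p-values measure the spread between these libraries, which may be technical.

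The dental mesenchyme descends from cranial neural crest. At the cap stage it condenses as the dental papilla under the epithelial cap and as the dental follicle around it, and at the bell stage the papilla approaches the formation of odontoblasts while the follicle gives rise to the attachment of the tooth and nearby osteogenic cells begin the alveolar bone. Blood vessels, macrophages and nerves enter the germ during the same period. Genes that mark the dental mesenchyme were present throughout: Msx1, a homeobox gene needed for tooth development, averaged 548 ± 46.8 (SD, n = 3) normalized CPM (counts per 1000000 counted read pairs of a library) in Cap_W and 389 ± 32.1 (SD, n = 3) in Bell_W. The summed level of 10 mesenchyme markers was 5020 to 5639 CPM at the cap stage and 6757 to 7672 CPM at the bell stage. Col1a1 rose by more CPM than the sum did, and the median log2 fold change of the 10 was -0.22.

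The libraries did not resemble each other equally. Cap_W1 correlated with the other cap libraries at 0.971 to 0.975 across 20940 genes on the log2(CPM + 1) scale, whereas Cap_W2 and Cap_W3 correlated at 0.995. Ribosomal RNA genes took 7.71% of the counts in Cap_W1 and 0.281% to 1.52% in the other 5 libraries, and mitochondrial genes took 7.95% against 3% to 4.05%. Cap_W2 stood above its group in Sfrp4, a secreted Wnt inhibitor (4.44, 149 and 19.7 CPM in Cap_W1, Cap_W2 and Cap_W3), and in Alx1, a craniofacial homeobox gene (4.05, 63.6 and 13.8 CPM). Bell_W3 held 378 protein-coding genes of 14618 more than 2-fold above both other bell libraries, against 27 in Bell_W1 and 3 in Bell_W2. Epithelial and neural genes were among those 378, with Fabp7, a gene of neural progenitors and glia, at 1.19, 0.809 and 42.4 CPM in Bell_W1, Bell_W2 and Bell_W3.

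A gene was called where edgeR's quasi-likelihood test gave an adjusted p under 0.05 and the log2 fold change, written as bell over cap, exceeded 0.5 in size. Of 20940 genes tested, 2155 rose from cap to bell (10.3%) and 882 fell (4.21%). Without Cap_W2 and Bell_W3 the counts were 1437 (6.89% of 20852) and 674 (3.23%), without Cap_W3 alone they were 1327 and 431, and without Bell_W2 alone 1382 and 450. In the 6 fits that each left out 1 library, 1203 genes were called higher at the bell stage every time (5.74%) and 353 were called lower every time (1.69%). With 3 libraries against 3, the smallest two-sided exact permutation p that a single gene can reach is 0.10. Values below are given in the order of the replicates 1, 2 and 3. Counts of list members called in the undivided mesenchyme with all libraries stand beside the shares of 10.3% higher and 4.21% lower over all genes.

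The genes named for the size of their rise were chosen among the 888 that were called in every fit and had an average log2 CPM of at least 2, with no overlap between the stages. Of all genes tested, 36.9% had no overlap between the stages in either direction. Fgf3, a fibroblast growth factor that the dental papilla sends to the epithelium, stood at 0.225, 0.998 and 0.655 CPM at the cap stage and at 26.1, 33.6 and 37 CPM at the bell stage (log2 fold change 5.59, SE 0.39, adjusted p = 0.000289). Scg2, which encodes a secretogranin of secretory granules, went from 0.393, 0.482 and 0.468 CPM to 29.8, 22.4 and 21.5 CPM (5.75, SE 0.23). Ltbp2, a latent TGF-beta binding protein of microfibrils, went from 0.562, 0.688 and 0.982 CPM to 29.2, 17.2 and 35.6 CPM (5.19, SE 0.36). In all 3 genes the stages were far apart, which the choice by size and lack of overlap requires. Rem1, a small GTPase of the RGK family, rose by 5.67 (SE 0.48). For 4 more genes Cap_W2 was the highest cap library: Mmp13, an interstitial collagenase, rose by 6.60, Gldn, which encodes gliomedin, by 6.71, the osteoclast proton pump subunit Atp6v0d2 by 6.00 (6.63 without Cap_W2) and the homeobox gene Dlx4 by 5.14 (5.92 without Cap_W2). No value is given for Mmp13 and Gldn without Cap_W2, since their other cap libraries held no more than 3 counts each. The keratin gene Krt13 and Ly6d, which encodes a membrane protein of stratified epithelia, complete this group, and their size turned on Bell_W3. Krt13 rose by 6.71 with all libraries and by 4.97 without Bell_W3, and Ly6d was at least 78.9-fold higher in Bell_W, or at least 20.1-fold without Bell_W3, since its cap libraries held no more than 3 counts each.

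**Figure D1:**
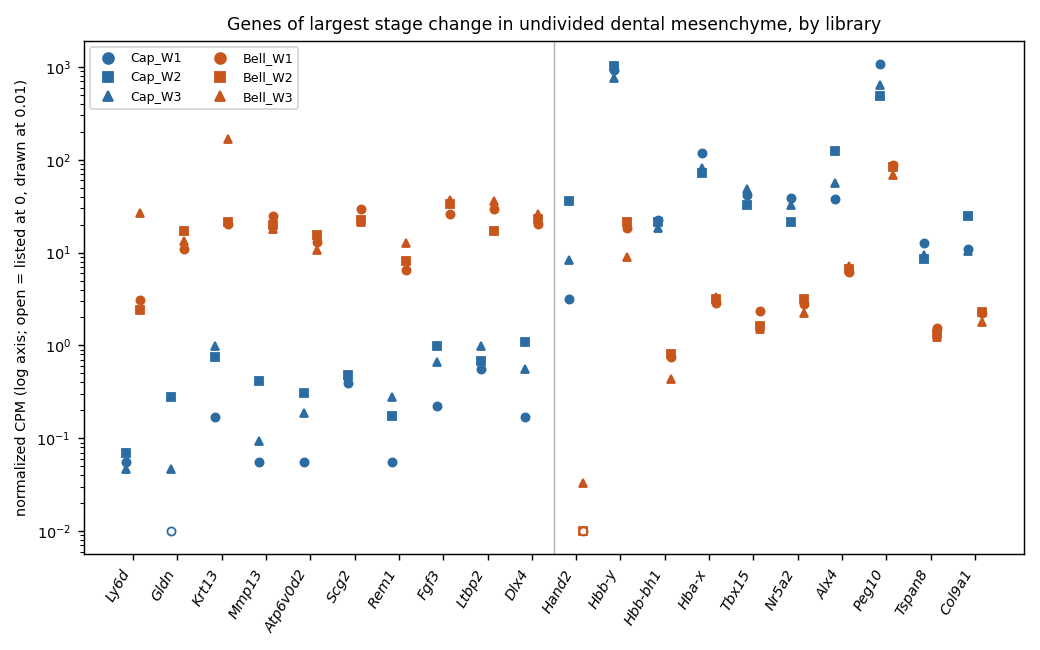
Normalized CPM on a log scale of the genes named for the size of their change, with each point 1 of the 3 cap or 3 bell libraries. The cap and bell libraries of each gene do not overlap, which was a condition of the choice. Bell_W3 lies above the other bell libraries in Krt13 (168 against 20.3 and 21.2 CPM) and Ly6d (27 against 3.09 and 2.43 CPM).

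Among the 322 genes that met the same conditions and fell, embryonic globin genes and regulators of early patterning had the lowest bell levels relative to cap. Tbx15, a T-box gene of craniofacial and limb mesenchyme, stood at 41.3, 32.2 and 48.8 CPM at the cap stage and at 2.33, 1.62 and 1.49 CPM at the bell stage (log2 fold change -4.49, SE 0.24, adjusted p = 0.000143). Peg10, an imprinted gene derived from a retrotransposon, went from 1073, 492 and 643 CPM to 88, 82.7 and 69.2 CPM (-3.20, SE 0.30). Nr5a2, an orphan nuclear receptor gene, went from 38.3, 21.2 and 32.3 CPM to 2.77, 3.19 and 2.22 CPM (-3.49, SE 0.27). The tetraspanin gene Tspan8 (-2.89, SE 0.24) and Col9a1, a cartilage collagen gene (-2.87, SE 0.38), also fell. In all of these the lowest cap library lay above the highest bell library, which the choice requires. Alx4, a homeobox gene of craniofacial mesenchyme, fell by 3.43 on the log2 scale and by 2.80 without Cap_W2. Hand2, which specifies the ventral part of the mandibular arch, ran from 3.15 to 36.4 CPM at the cap stage and held at most 1 count in each bell library. It was at least 139-fold higher in Cap_W, or at least 50.0-fold without Cap_W2, and other genes overlap 19.6% of its exon bases.

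Red blood cells change the globins they make during this period, from embryonic chains made by primitive cells of the yolk sac to adult chains made by definitive cells. All 3 embryonic globin genes fell and all 4 adult globin genes rose. Hbb-y (chromosome 7, 103500956 to 103502423, GRCm39) went from 934, 1015 and 758 CPM to 18.4, 21.3 and 8.96 CPM (log2 fold change -5.80, SE 0.36, adjusted p = 0.000223), Hbb-bh1 fell by 4.97 (SE 0.26) and Hba-x by 4.85 (SE 0.22). Hbb-bs rose from 192, 451 and 262 CPM to 2692, 2609 and 2047 CPM (3.02, SE 0.33, adjusted p = 0.00128), and Hbb-bt by 3.00 (SE 0.34). Hba-a1 and Hba-a2 rose by 1.70 and 1.75. The counts of each near-identical pair, Hba-a1 with Hba-a2 and Hbb-bs with Hbb-bt, are uncertain because read pairs matching several places were left out. All 7 calls held when any 1 library was left out. Of 7 other erythroid genes tested, 2 were called higher with all libraries, and 1 when any 1 library other than Cap_W1 was left out. Alas2, the erythroid enzyme of heme synthesis, rose by 1.98 (SE 0.18). Slc4a1, the erythroid anion exchanger, was at -0.61 (adjusted p = 0.244) and was called lower without Bell_W2 (-1.04, adjusted p = 0.0413).

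The promoters of an embryonic and an adult beta globin gene are shown because these 2 genes moved in opposite directions by a large amount. Each run gives the 300 bases before the annotated start of the gene in GRCm39, on the strand of the gene, with capitals for the CACC motif, which is CCACCC in Hbb-y and CCACACCC in Hbb-bs.
Hbb-y promoter, chr7:103502424-103502723, minus strand: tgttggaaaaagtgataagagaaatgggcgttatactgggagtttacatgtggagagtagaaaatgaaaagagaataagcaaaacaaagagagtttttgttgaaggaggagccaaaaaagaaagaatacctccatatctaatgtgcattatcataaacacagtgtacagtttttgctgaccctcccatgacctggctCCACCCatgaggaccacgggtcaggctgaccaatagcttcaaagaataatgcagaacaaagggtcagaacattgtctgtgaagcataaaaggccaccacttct
Hbb-bs promoter, chr7:103477170-103477469, minus strand: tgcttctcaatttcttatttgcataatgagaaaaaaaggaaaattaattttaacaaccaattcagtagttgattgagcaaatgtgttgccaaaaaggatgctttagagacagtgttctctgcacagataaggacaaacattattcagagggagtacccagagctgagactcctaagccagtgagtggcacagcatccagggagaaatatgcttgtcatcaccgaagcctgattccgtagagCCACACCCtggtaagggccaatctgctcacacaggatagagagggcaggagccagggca
The motif began 103 bases before the start in Hbb-y and 59 bases before it in Hbb-bs. CCACCC, searched on both strands, was found in 31.8% of 21629 promoters of this length and CCACACCC in 3.97%, so the shorter motif is common. A match is a description of the letters and not evidence of a bound site.

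Macrophage and osteoclast genes rose together. All 12 macrophage markers were called higher at the bell stage, with a median log2 fold change of 2.45 against -0.03 over all genes tested, and their summed level went from 57.6 to 64.6 CPM at the cap stage to 294 to 315 CPM at the bell stage. Lyz2, the myeloid lysozyme gene, went from 2.3, 2.86 and 1.78 CPM to 22.4, 23.3 and 33.5 CPM (3.50, SE 0.25, adjusted p = 0.000307). Tyrobp, an adaptor of myeloid receptors, rose by 3.15 (SE 0.17) and Csf1r, the receptor on which macrophages depend, from 8.54, 9.33 and 7.44 CPM to 49.3, 61.1 and 53.7 CPM (2.69, SE 0.14), although other genes overlap 15.1% of its exon bases. Cd68 was the exception in stability, losing its call without Cap_W3, Bell_W2 or Bell_W3 (adjusted p 0.0705 to 0.0905). In bulk tissue, more cells of a type and more RNA per cell cannot be told apart, and this holds for every cell type marker here.

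Osteoclasts are multinucleated cells of the monocyte lineage that resorb bone, and 6 of 7 of their genes tested rose, whichever library was left out. Acp5, which encodes the tartrate-resistant acid phosphatase, went from 1.57, 2.62 and 2.1 CPM to 37.9, 45.4 and 34 CPM (4.20, SE 0.22, adjusted p = 0.000143). Ctsk, the collagen-degrading cathepsin, rose from 22.4, 22.7 and 19.8 CPM to 120, 137 and 106 CPM (2.48, SE 0.13), and Mmp9 by 2.13 (SE 0.38). The fusion genes Ocstamp and Dcstamp held no more than 3 counts in any cap library, and in Bell_W Ocstamp was at least 17.0-fold higher and Dcstamp at least 16.2-fold higher. Calcr, the calcitonin receptor, was the member not called (-0.06, adjusted p = 0.953), and Oscar was too low to be tested.

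Vessel genes rose by a smaller amount. All 12 endothelial markers were called higher at the bell stage, with a median log2 fold change of 1.10, and the sum went from 277 to 292 CPM to 561 to 660 CPM. The parts did not share most of this rise. Over the same step 3 of 12 rose in the lingual part and 2 of 12 in the buccal part (medians 0.27 and 0.35). Pecam1, an endothelial junction gene, went from 36.8, 34.2 and 37.9 CPM to 104, 91.2 and 73.4 CPM (1.30, SE 0.14, adjusted p = 0.00134), and Egfl7, a secreted endothelial factor, rose by 1.08 (SE 0.10). Sox17, a transcription factor of arterial endothelium, rose by 1.87 (SE 0.30) and Esam by 1.58 (SE 0.25), while Emcn lost its call without Cap_W3 or Bell_W2 (adjusted p = 0.0541 and 0.0558). Of 9 pericyte and smooth muscle genes 4 were called higher, against 10.3% of all genes. Acta2, the smooth muscle actin gene, rose from 17.7, 7.09 and 10.4 CPM to 38.1, 33.4 and 44.5 CPM (1.73, SE 0.31). Kcnj8, a potassium channel gene of pericytes, rose from 0.675, 4.92 and 1.73 CPM to 40.1, 45.6 and 42.3 CPM (4.06, SE 0.55, or 5.11 without Cap_W2). Abcc9, the partner subunit of that channel, lost its call without Cap_W3, Bell_W1 or Bell_W2, and Myh11 without Cap_W2 or any of those 3 libraries, which brought the count to 2 without Cap_W3, Bell_W1 or Bell_W2. The pericyte gene Rgs5 was at 0.17 (adjusted p = 0.651).

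**Figure D2:**
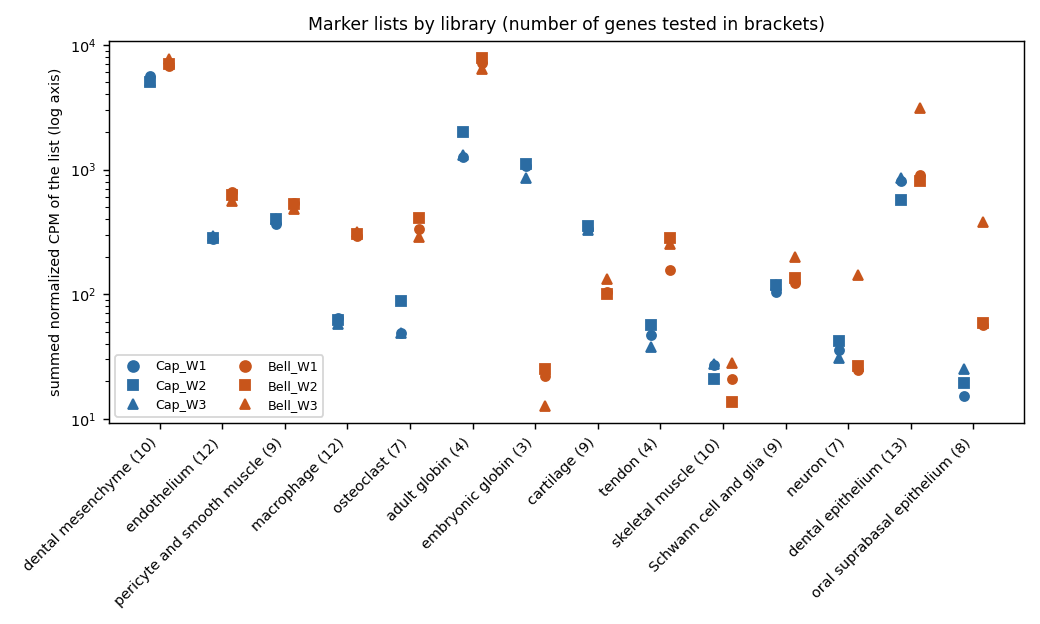
Summed normalized CPM of cell type marker lists in each of the 6 undivided libraries, on a log scale, with 1 point per library. Macrophage, osteoclast, endothelial and adult globin sums are higher in all bell libraries, embryonic globins are lower, and the epithelial and neuronal sums stand out in Bell_W3 alone (3143 against 815 and 900 CPM for dental epithelium).

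The matrix of the mesenchyme changed in its small leucine-rich proteoglycans and its elastic fibers, which bind and space collagen fibrils and give tissue its recoil. Of 19 such genes tested, 12 rose and none fell. Ogn, encoding osteoglycin, went from 16.1, 14.6 and 16.2 CPM to 321, 242 and 200 CPM (4.02, SE 0.20, adjusted p = 0.000122). Omd, encoding osteomodulin, rose by 4.19 (SE 0.18), Prelp by 3.64 (SE 0.30) and Aspn, encoding asporin, by 2.91 (SE 0.24). The more abundant decorin gene Dcn went from 39.3, 57.3 and 57.1 CPM to 395, 364 and 345 CPM (2.84, SE 0.17) and lumican, Lum, rose by 2.75 (SE 0.20). Eln, the elastin gene, rose by 2.09 (SE 0.19), whereas the fibrillin genes Fbn1 and Fbn2 stood at 0.26 and -0.28 and were not called. Col1a1, the main collagen of this tissue, rose from 873, 1097 and 1026 CPM to 3109, 3006 and 4276 CPM (1.79, SE 0.20).

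Genes of mineralized tissue rose in part. Of 16 tested, 11 were called higher, with a median of 1.47, and Dspp, Mepe and Bglap, which mark mature odontoblasts and osteoblasts, were too low to be tested. The parts did not share this rise over the same step. In the lingual part 3 of 17 tested rose and 11 fell (median -0.61), and in the buccal part 8 of 17 rose and 2 fell (median 0.37). Ibsp, a bone sialoprotein gene, went from 1.01, 9.12 and 3.46 CPM to 65.6, 118 and 65.7 CPM (4.14, SE 0.65, or 5.18 without Cap_W2). Dmp1, a phosphoprotein gene of osteocytes and odontoblasts, stayed low, rising from 0.225, 0.275 and 0.0935 CPM to 2.45, 2.55 and 1.66 CPM (3.43, SE 0.46). Spp1, encoding osteopontin, rose by 3.41 (SE 0.31), Smpd3, a sphingomyelinase gene needed for mineralization, by 2.79 (SE 0.35) and Sparc by 2.02 (SE 0.17). The osteoblast regulators Runx2 and Sp7 were at 0.33 (adjusted p = 0.249) and 1.01 (adjusted p = 0.0709), and Sp7 was called higher without Cap_W1 or Cap_W2 (adjusted p = 0.0321 and 0.024). Panx3 lost its call without Cap_W2, Bell_W1 or Bell_W2, and Ifitm5 held its call only with all libraries or without Bell_W3.

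Of 18 matrix proteases and inhibitors, 9 rose and none fell, against 10.3% and 4.21% of all genes. Besides Mmp13 and Mmp9, Adamts2, the procollagen N-proteinase, rose from 21.6, 43.7 and 33.6 CPM to 180, 180 and 131 CPM (2.31, SE 0.26), and Adamts4, an aggrecanase, by 1.64 (SE 0.25). The inhibitor genes Timp1 and Timp2 rose by 1.28 and 0.90. Tendon genes split: Thbs4, a thrombospondin of tendon matrix, rose from 7.48, 5.06 and 4.49 CPM to 105, 226 and 214 CPM (5.01, SE 0.36) and Tnmd, tenomodulin, by 3.26 (SE 0.20), while their regulator Scx was at -1.43, or -0.94 without Cap_W1, and lost its call without any 1 of the bell libraries (adjusted p 0.0562 to 0.117).

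Cartilage genes were divided, with 4 of 9 called lower and 2 called higher, against 4.21% and 10.3% of all genes. Col2a1, the main collagen of cartilage, fell from 193, 189 and 197 CPM to 22.5, 16.6 and 40 CPM (-2.87, SE 0.30, adjusted p = 0.00118), and Cnmd, chondromodulin, fell by 2.83 (SE 0.30). Sox6 fell by 1.62 (SE 0.22), whereas its partner Sox5 rose by 1.07 (SE 0.17), and both are regulators of chondrocytes. The second riser, Hapln1, lost its call without Cap_W1, Cap_W3, Bell_W1 or Bell_W2. Sox9 and Acan were at -1.28 and -1.41 with adjusted p = 0.0849 and 0.084. Sox9 was called lower without Bell_W3 (-1.97, adjusted p = 0.00517), and Acan was at -0.74 without Cap_W2.

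**Figure D3:**
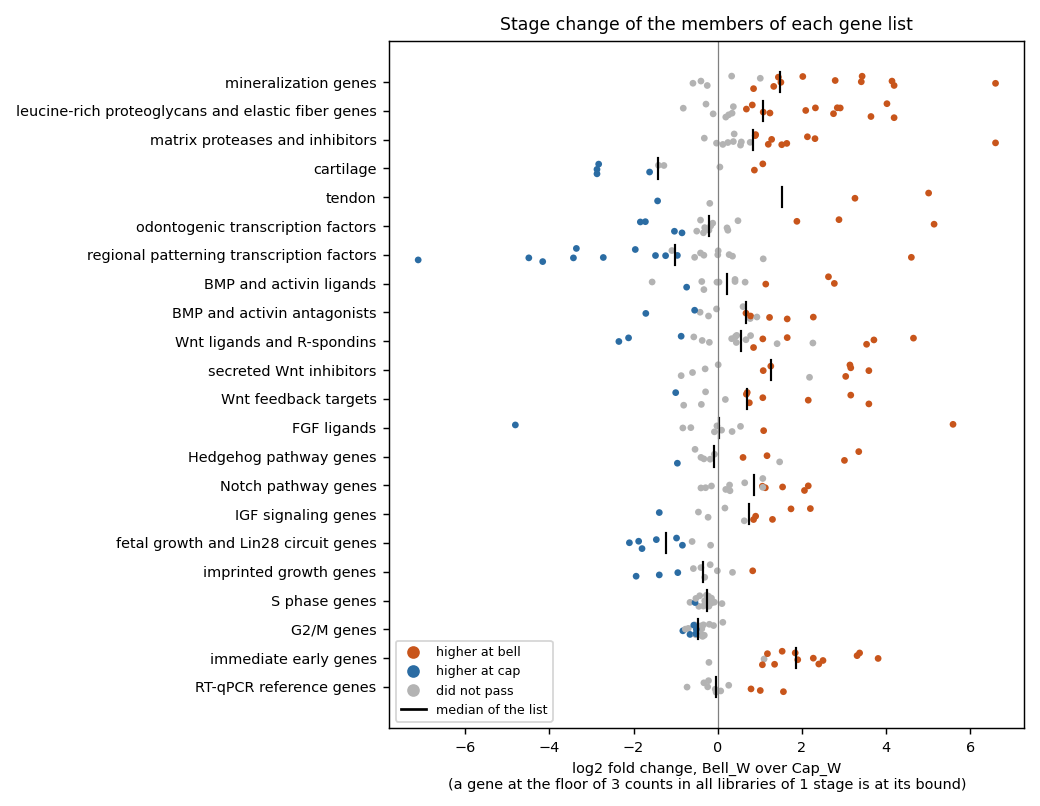
Log2 fold change, bell over cap, of every tested member of selected gene lists in the undivided mesenchyme, with 1 point per gene, orange where called higher at bell, blue where called higher at cap and grey where not called, and a black bar for the median of the list. Immediate early genes lie to the right of 0 except Klf4 (-0.21), with a median of 1.87, and the medians of the regional patterning and Lin28 circuit genes lie to the left (-1.03 and -1.22).

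Of 20 transcription factors tested that pattern regions of the face and jaw, 10 fell, 1 rose and 9 were not called, with a median of -1.03. Over all genes 4.21% fell, and 7 to 10 of the 20 fell with 1 library left out. Tbx3 fell from 125, 112 and 113 CPM to 37, 41.4 and 47.2 CPM (-1.48, SE 0.12, adjusted p = 0.00052), Tbx18 by 3.36 (SE 0.36) and Tbx22, a palate regulator, by 2.72 (SE 0.19). Alx1 fell with all libraries (-4.16) but was called in only 3 of the 6 fits, its call being lost without any 1 of the bell libraries (adjusted p 0.068 to 0.0992), and its value without Cap_W2 was -2.56. Irx3 and Meis2 lost their calls without Cap_W3, Bell_W1 or Bell_W2. The gene that rose was Foxd2, a forkhead gene, from 0.0562, 0.31 and 0.14 CPM to 3.13, 5.15 and 5.27 CPM (4.60, SE 0.52).

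Of 17 factors known for tooth development, 3 were called higher, against 10.3% of all genes, and 4 were called lower, against 4.21%. Of the 10 genes that mark the dental mesenchyme, Col1a1 and the vimentin gene Vim (1.27, SE 0.14) rose, and Lhx8 and Prrx1 were called lower. Dlx3, a homeobox gene of mineralizing tissues, rose from 6.8, 10.9 and 9.45 CPM to 43.2, 58.9 and 99.2 CPM (2.88, SE 0.33, adjusted p = 0.00159), next to its neighbor Dlx4. Pitx1, a regulator of the mandibular arch, fell from 283, 208 and 205 CPM to 45.5, 46.7 and 102 CPM (-1.84, SE 0.33), Dlx6 by 1.72 (SE 0.27) and Lhx8, a LIM homeobox gene of the dental mesenchyme, by 0.85 (SE 0.13). Msx2 lost its call without Cap_W3, Bell_W2 or Bell_W3, and Prrx1 without Cap_W1, Cap_W3 or Bell_W2. Msx1, Pax9, Barx1, Twist1 and Osr2 were not called, with log2 fold changes between -0.50 and 0.22, although Barx1 was called higher without Cap_W1 (0.70, adjusted p = 0.0273). For Msx1 the adjusted p was 0.0342 and only the limit on the fold kept it out.

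Genes of the papilla and follicle rose in part. Of 8 papilla genes tested 5 were called, among them Egr3, a zinc finger gene, from 3.26, 18.6 and 4.49 CPM to 91.6, 121 and 93.4 CPM (3.50, SE 0.61, or 4.71 without Cap_W2), and Lef1, a nuclear partner of beta-catenin, which rose by 0.70 (SE 0.11). The papilla gene Crym was at 0.05 (adjusted p = 0.85). Of 6 follicle genes 3 were called: Aspn, Spon1 (2.38, SE 0.20) and Bmp3, which lost its call without Cap_W3 or Bell_W2 (adjusted p = 0.0503 and 0.0573). Postn, a periostin gene of the follicle, was at -0.22.

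Wnt signals pass between epithelium and mesenchyme throughout tooth development, and several of their secreted inhibitors are themselves targets of the pathway. Of 20 ligands and R-spondins tested, 6 rose and 3 fell, against 10.3% and 4.21% of all genes. Rspo4 went from 0.45, 0.62 and 0.374 CPM to 13.1, 12.8 and 11.3 CPM (4.65, SE 0.26, adjusted p = 0.000143), Rspo2 rose by 1.65 (SE 0.20) and Rspo1 by 0.85 (SE 0.15), all 3 encoding secreted enhancers of Wnt reception. Wnt10a, which odontoblast precursors and epithelium both express, rose by 3.71 (SE 0.52) and by 3.06 without Bell_W3, where it stood at 22.6 against 6.77 and 9.83 CPM. Wnt2 fell from 6.35, 6.68 and 7.95 CPM to 1.82, 1.49 and 1.49 CPM (-2.12, SE 0.23). Wnt7a, Wnt9b, Wnt11 and Rspo3 lost their calls without at least 1 library: Wnt7a without any 1 of the cap libraries, Wnt9b without Cap_W3, Bell_W2 or Bell_W3, Wnt11 without Cap_W3 or Bell_W2, and Rspo3 in all fits but that without Bell_W3. The count that fell came to 1 without Cap_W3 or without Bell_W2, and the count that rose to 4 without Cap_W3.

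Of 11 secreted Wnt inhibitors 6 were called higher and none lower, with a median of 1.26. Wif1 went from 16.4, 42.4 and 23.9 CPM to 223, 286 and 223 CPM (3.14, SE 0.34, adjusted p = 0.00122), Dkk1 from 1.46, 2.07 and 2.2 CPM to 14.3, 17 and 20.4 CPM (3.16, SE 0.23), and Dkk2 and Dkk3 rose by 1.26 and 1.08. Notum, an extracellular enzyme that inactivates Wnt proteins, rose by 3.59 (4.36 without Cap_W2), and other genes overlap 38.1% of its exon bases. Dkk4 lost its call without Cap_W2 or Cap_W3 (adjusted p = 0.07 and 0.0757). The frizzled-related inhibitors Sfrp1, Sfrp2 and Frzb were at 0.01, -0.30 and -0.60 and were not called. Of 12 feedback targets of the pathway, 7 rose and 1 fell, against 10.3% and 4.21% of all genes. Tcf7 rose by 2.15 (SE 0.19) and Apcdd1 by 1.07 (SE 0.14), Lgr5, an R-spondin receptor gene, fell from 104, 119 and 138 CPM to 65.1, 60.4 and 55.2 CPM (adjusted p = 0.00266), and the widely used reporter gene Axin2 was at -0.39 (adjusted p = 0.071).

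BMP ligands carry signals of the mesenchyme to the epithelium. Bmp4, the best known of them, rose from 49.5, 86.7 and 70.4 CPM to 138, 171 and 149 CPM (1.14, SE 0.20, adjusted p = 0.00837), while Bmp6 fell by 0.74 (SE 0.11). Of 12 ligands 3 rose and 1 fell, against 10.3% and 4.21% of all genes. Bmp3 and Inhbb lost their calls without Cap_W3 or Bell_W2, leaving 1 riser there, and Inhbb also without Cap_W2. Among 13 antagonists 5 rose and 2 fell, against the same shares. Sostdc1, which also inhibits Wnt signals, rose from 52.2, 58.9 and 58.8 CPM to 222, 263 and 337 CPM (2.27, SE 0.17) and the activin antagonist Fst by 1.23 (SE 0.19), whereas Chrdl2 fell by 1.71 (SE 0.28). Chrd lost its call without Cap_W2 or any 1 of the bell libraries, and Smad7 in all fits but that without Bell_W3. Of 9 response genes Id3 and Msx2 were called higher and Smad7 lower, against 10.3% and 4.21% of all genes. None of the 9 was called without Cap_W3 or without Bell_W2, and Id1, Id2 and Id4 were not called.

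Of 10 FGF ligands, Fgf3 and Fgf7 were called higher and Fgf8 lower, against 10.3% and 4.21% of all genes. Fgf8, an early signal of the oral epithelium, was at 2.19, 1.24 and 2.24 CPM at the cap stage and at 0, 0.0426 and 0.133 CPM at the bell stage, which is at or near the 3 counts taken as the floor. Fgf7 lost its call without Cap_W2, Cap_W3 or Bell_W2, and Fgf10, another papilla ligand, was at 0.34 (adjusted p = 0.35). Of 13 receptors and feedback genes, 2 were called higher and 1 lower, against 10.3% and 4.21% of all genes. Fgfr2 rose from 67, 91.3 and 94.6 CPM to 186, 249 and 230 CPM (1.39, SE 0.17) and Spry4, an inhibitor of FGF signals, fell by 0.71 (SE 0.12). Etv4 was called only without Bell_W1, without Bell_W3 or with all libraries, with a change of 0.84 that came to 0.54 without Bell_W3.

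Hedgehog signals come from the epithelium and are read by the mesenchyme through Ptch1 and the Gli factors. Ptch1 rose from 259, 350 and 351 CPM to 640, 815 and 707 CPM (1.17, SE 0.17, adjusted p = 0.00345) and Hhip, a membrane antagonist, from 4.05, 5.89 and 5.33 CPM to 43.6, 46 and 34.3 CPM (3.01, SE 0.19). Gli2 fell by 0.96 (SE 0.11). The ligand Shh stood at 3.72, 4.51 and 30.2 CPM at the bell stage and lost its call without any 1 of the cap libraries (adjusted p 0.0897 to 0.111), and its log2 fold change without Bell_W3 was 1.71 in place of 3.35. Gli1 lost its call whichever library was left out (adjusted p 0.0463 to 0.147, the lowest being short of the fold limit). Of 11 genes in all, 4 rose and 1 fell, against 10.3% and 4.21% of all genes, and 2 rose without any 1 of the cap libraries.

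Of 14 Notch pathway genes 5 were called higher and none lower, against 10.3% and 4.21% of all genes. The 5 came to 2 without Bell_W1 or without Bell_W2 and to 3 without Cap_W3. Heyl, a target gene, rose from 4.22, 7.47 and 6.88 CPM to 27.8, 26.4 and 28.9 CPM (2.15, SE 0.22, adjusted p = 0.000999) and Lfng, a modifier of the receptor, by 2.06 (SE 0.34). The other 3, Notch4, Dll1 and Dll4, were each lost without Bell_W1 or without Bell_W2.

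The insulin-like growth factor genes moved in opposite ways. Igf2 fell from 430, 308 and 280 CPM to 138, 112 and 139 CPM (-1.39, SE 0.19, adjusted p = 0.00272), and other genes overlap 64.5% of its exon bases. Over the same step Igf2 was not called lower in the lingual or the buccal part. Of the binding proteins, Igfbp7 rose by 2.20 (SE 0.21), Igfbp3 by 1.30 (SE 0.12) and Igfbp4 by 0.85 (SE 0.14). Igf1 kept its call in 1 of the 6 fits, that without Bell_W3, and Igfbp6 lost it without Cap_W2, Cap_W3, Bell_W2 or Bell_W3. That leaves 3 of the 5 risers called without Cap_W2, Cap_W3 or Bell_W2.

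In the metabolism of retinoic acid, Aldh1a3, which makes it, rose from 6.52, 16 and 9.82 CPM to 71.2, 86.1 and 73.5 CPM (2.82, SE 0.30, adjusted p = 0.00119) and Cyp26b1, which breaks it down, fell from 339, 310 and 335 CPM to 151, 138 and 141 CPM (-1.20, SE 0.10). Of 11 genes of this group, 3 were called, against 14.5% of all genes. Of 20 axon guidance and neurotrophic cues, 3 were called higher and 2 lower, against 10.3% and 4.21% of all genes. The neurotrophin gene Ntf3 fell by 1.81 (SE 0.23), and Bdnf, Ntn1 and Sema3b each lost a call in at least 3 of the 6 fits, so that none of the 20 was called higher without Cap_W3 and 1 without Cap_W1, Cap_W2 or Bell_W2. Semaphorin 3A (Sema3a), which keeps axons out of the early germ, was at 0.29 (adjusted p = 0.513).

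The Lin28 circuit holds embryonic tissue in a state of early growth. Of 8 of its genes tested, 6 were called lower and none higher, with a median of -1.22. Hmga2, a chromatin protein gene repressed by let-7, went from 471, 361 and 434 CPM to 150, 157 and 152 CPM (-1.46, SE 0.13, adjusted p = 0.000656). The RNA-binding protein genes Igf2bp1, Igf2bp2 and Igf2bp3 fell by 1.88, 0.84 and 0.98, and Lin28b by 1.80 (SE 0.25) from 3.99, 3.99 and 4.63 CPM. Trim71 was called in only 2 of the 6 fits, being lost without Cap_W2, Cap_W3, Bell_W1 or Bell_W2. Among 10 imprinted growth genes Dlk1 fell from 409, 462 and 353 CPM to 104, 78.1 and 138 CPM (-1.94, SE 0.22), Igf2 fell as above, Peg3 lost its call without Cap_W2, Cap_W3 or Bell_W2, and Mest rose by 0.83 (SE 0.13). H19, next to Igf2 in the genome, was at -0.18 (adjusted p = 0.592).

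Genes of S phase, G2 and mitosis were called lower or not at all. Of 20 S phase genes 1 was called lower, Ccne1, against 4.21% of all genes, and it lost its call without Cap_W1, Cap_W3, Bell_W1 or Bell_W2. Of 20 genes of G2 and mitosis 6 were called lower and none higher, and only Bub1, a spindle checkpoint kinase gene, was called in every fit (-0.66, SE 0.13). Their count was 2 without Cap_W1, Cap_W2 or Bell_W2, 3 without Bell_W1 or Bell_W3 and 4 without Cap_W3. All cap libraries lay above all bell libraries in 12 of the S phase genes and 14 of the genes of G2 and mitosis, against 16.5% of all genes. The sum of the latter was 2544 to 3346 CPM at the cap stage and 1881 to 2134 CPM at the bell stage, without overlap. In the lingual and buccal parts none of the 20 genes of G2 and mitosis was called over the same step (medians -0.15 and 0.12). Of the S phase genes none was called in the lingual part, and 2 were called higher in the buccal part. Of 5 inhibitors of cyclin-dependent kinases 3 were called higher, with Cdkn1a rising from 2.92, 5.2 and 6.55 CPM to 14.5, 18.1 and 27.5 CPM (2.03, SE 0.34) and Cdkn2c by 1.34 (SE 0.16). Cdkn2d lost its call without Cap_W3 or Bell_W2.

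Immediate early genes are transcribed within minutes of a stimulus, without new protein being made first. Of 14 tested, 12 were called higher at the bell stage and none lower, with a median of 1.87. Zfp36, which encodes a protein that destabilizes messenger RNA, went from 24.2, 25.6 and 23.7 CPM to 256, 304 and 475 CPM (3.81, SE 0.24, adjusted p = 0.000244). Btg2, an antiproliferative gene, went from 15.3, 23.1 and 25.4 CPM to 193, 200 and 271 CPM (3.37, SE 0.23) and Atf3, a stress-induced transcription factor gene, from 4.78, 3.72 and 3.98 CPM to 29.8, 29.5 and 63.7 CPM (3.31, SE 0.34). Egr2 rose by 2.40 (SE 0.26) and Fos from 238, 303 and 247 CPM to 744, 872 and 1329 CPM (1.90, SE 0.23). Bell_W3 was the highest library in 11 of the 12. Jun lost its call without Cap_W2, Cap_W3 or Bell_W2, and Fosb and Klf4 were not called, although Fosb was called higher without Cap_W2 (1.59, adjusted p = 0.0391).

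The promoters of 3 immediate early genes are shown because they were called higher and were chosen for holding a motif of signal-dependent transcription. Each run gives the 300 bases before the annotated start in GRCm39 on the strand of the gene, with capitals for the CArG box, which serum response factor binds, in Egr2 and for the cAMP response element TGACGTCA in Btg2 and Dusp1.
Egr2 promoter, chr10:67373392-67373691, plus strand: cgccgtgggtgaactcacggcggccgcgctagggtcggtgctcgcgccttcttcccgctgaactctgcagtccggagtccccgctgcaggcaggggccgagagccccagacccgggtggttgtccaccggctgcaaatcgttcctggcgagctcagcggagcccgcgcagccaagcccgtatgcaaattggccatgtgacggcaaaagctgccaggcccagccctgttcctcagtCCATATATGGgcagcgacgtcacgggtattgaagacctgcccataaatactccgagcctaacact
Btg2 promoter, chr1:134006859-134007158, minus strand: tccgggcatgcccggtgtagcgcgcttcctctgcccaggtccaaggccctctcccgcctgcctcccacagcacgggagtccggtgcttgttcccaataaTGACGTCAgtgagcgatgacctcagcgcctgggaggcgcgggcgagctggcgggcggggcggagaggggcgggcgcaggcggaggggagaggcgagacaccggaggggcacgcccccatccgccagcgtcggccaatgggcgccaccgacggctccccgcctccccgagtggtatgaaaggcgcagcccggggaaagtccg
Dusp1 promoter, chr17:26727494-26727793, minus strand: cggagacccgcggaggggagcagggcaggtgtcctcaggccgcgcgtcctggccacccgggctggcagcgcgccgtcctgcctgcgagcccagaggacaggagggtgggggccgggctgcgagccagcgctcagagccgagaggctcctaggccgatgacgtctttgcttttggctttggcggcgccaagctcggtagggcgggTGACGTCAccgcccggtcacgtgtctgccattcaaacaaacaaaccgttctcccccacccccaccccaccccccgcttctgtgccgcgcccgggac
The CArG box began 65 bases before the start of Egr2, and TGACGTCA began 201 bases before that of Btg2 and 96 bases before that of Dusp1. Searched on both strands, the CArG box was found in 1.71% and TGACGTCA in 1.74% of 21629 promoters. Within the list the CArG box was also in Fosb and TGACGTCA also in Ier2. Zfp36, Atf3, Fos, Jun, Junb, Ier3, Klf4 and Klf6 held neither motif. The result for the promoter of Egr1 is not reported here. Dusp1, which encodes a phosphatase that switches off MAP kinases, rose from 46, 38.6 and 33.7 CPM to 104, 127 and 192 CPM (1.84, SE 0.24).

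Genes often used as a reference in RT-qPCR were not all level. Of 12 tested, 3 rose in every fit: B2m, which presents antigen with class I molecules, from 46, 39.3 and 34.3 CPM to 110, 112 and 131 CPM (1.56, SE 0.14), Hprt1 by 1.01 (SE 0.11) and Gusb by 0.79 (SE 0.10). Actb and Gapdh were at 0.26 and -0.73, with adjusted p = 0.314 and 0.136. Of 16 genes of hypoxia and glycolysis, 2 rose, against 10.3% of all genes. They were Pfkp (1.33) and Ndrg1, which went from 5.73, 9.47 and 8.75 CPM to 19.8, 18.9 and 29.2 CPM. Of 15 Hox genes only Hoxd8 was high enough to be tested, and it rose from at most 0.138 CPM to 0.995 to 1.27 CPM.

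The epithelium had been removed, but genes that mark it were still read, and the source of these reads was not tested. Of 13 dental epithelium genes 3 were called higher, Krt5, Krt15 and Krt18, and each was called in 3 of the 6 fits. Krt5 stood at 101, 71.7 and 120 CPM at the cap stage and at 268, 228 and 1054 CPM at the bell stage, so that the change was 2.41 with all libraries and 1.35 without Bell_W3, and its call was lost without any 1 of the cap libraries. Krt15 behaved alike (2.82, or 1.37 without Bell_W3), and Krt18 lost its call without Cap_W3, Bell_W2 or Bell_W3. None of the 13 was called higher without Cap_W3, and 1 was without Cap_W1 or Cap_W2. Epcam and Cdh1, defining genes of this epithelium, were at 23.7 and 23.1 CPM in Bell_W1 and at 72.7 and 77.1 CPM in Bell_W3 and were not called. The sum over the list was 570 to 861 CPM at the cap stage, 900 and 815 CPM in Bell_W1 and Bell_W2, and 3143 CPM in Bell_W3.

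Of 8 genes tested of suprabasal oral epithelium, the differentiated upper layers, 5 were called higher, while Krt10 and Sbsn stood at -0.13 and 0.28 and Krtdap at 3.01 with an adjusted p of 0.0937. The sum of the 8 was 15.3 to 25 CPM at the cap stage, 56.3 and 58.6 CPM in Bell_W1 and Bell_W2 and 380 CPM in Bell_W3. Krt13 stood at 0.169, 0.757 and 0.982 CPM at the cap stage and at 20.3, 21.2 and 168 CPM at the bell stage. Krt13 and Ly6d were called in every fit, whereas Krt4 and Krt6a lost their calls without any 1 of the cap libraries and Krt1 there and without Bell_W2, leaving 2 of the 5 without Cap_W1, Cap_W2 or Cap_W3. Without Bell_W3 the changes of Krt4, Krt6a and Krt1 were 2.58, 1.96 and 1.40 in place of 4.51, 3.77 and 2.21. Whether epithelial tissue had a part in the calls of other genes was not tested. Several genes above also had their highest level in Bell_W3, among them Wnt10a, Shh, Inhbb, Dkk4, Dlx3, Sostdc1, Cdkn1a, most immediate early genes and Ntn1, whose change was 1.81 with all libraries and 1.15 without Bell_W3.

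Genes of neurons were low apart from Bell_W3. Of 7 tested none was called higher and Isl1 was called lower, against 10.3% and 4.21% of all genes. Isl1 lost its call without Cap_W2, Cap_W3, Bell_W2 or Bell_W3, and without Bell_W3 2 others were called lower. The sum was 31 to 42.2 CPM at the cap stage, 24.8 and 26.5 CPM in Bell_W1 and Bell_W2 and 143 CPM in Bell_W3, where Tubb3, a neuronal tubulin gene, stood at 87.9 against 17.1 and 18.2 CPM. Of 9 Schwann cell and glia genes S100b alone was called, against 14.5% of all genes. It rose from 0.281, 0.895 and 0.748 CPM to 18.9, 17.7 and 16.8 CPM (4.73, SE 0.34, adjusted p = 0.000307). Sox10, a defining gene of Schwann cells, was at -0.71 and was not called. None of the 10 skeletal muscle genes tested was called, their sum being 20.8 to 27.4 CPM and 13.6 to 28 CPM, and Pmel, the 1 melanocyte gene tested, was at 0.83 (adjusted p = 0.24).

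The same step from cap to bell was measured in the lingual and buccal parts, whose libraries were more alike within their groups. There 2936 genes rose (14.0% of 20908) and 1233 fell (5.90%) in the lingual part, 19.9% in all, and 2523 rose (12.1% of 20926) and 1424 fell (6.80%) in the buccal part, 18.9% in all. In the undivided mesenchyme the share in all was 14.5%. Of the 2155 genes that rose in the undivided mesenchyme, 950 also rose in both parts, which is 44.1% of them and 61.8% of the 1538 genes that rose in both parts. Of the 882 that fell, 139 also fell in both parts, which is 15.8% of them and 32.1% of 433. Calls in the opposite direction numbered 27 and 49 among the risers, in the lingual and the buccal part, and 14 and 36 among the genes that fell.

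A test of the difference itself, the stage change in the undivided mesenchyme against the mean stage change of the parts over 18 libraries, called 3861 of 22836 genes at an adjusted p under 0.05 (16.9%), 2252 upward (9.86%) and 1609 downward (7.05%). Among the 2155 genes that rose in the undivided mesenchyme the stage change differed from the parts in 1434, being larger in 1427 and smaller in 7. Among the 882 that fell it differed in 612, being larger in 609 and smaller in 3. These genes were chosen by the size of their change in the undivided libraries, which enter both tests, so the direction of the difference is no independent result. The fit gives all 18 libraries 1 dispersion per gene although the undivided libraries varied more.

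**Figure D4:**
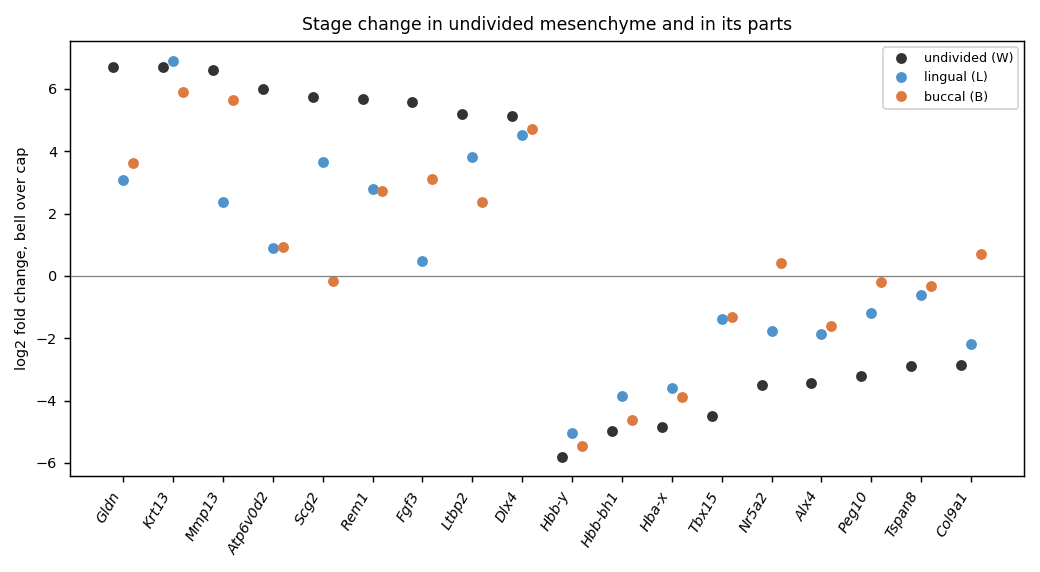
Log2 fold change from cap to bell of the named genes in the undivided mesenchyme, the lingual part and the buccal part, with 1 point per tissue and no error drawn. Fgf3 rose by 5.59, 0.48 and 3.10 and Tbx15 changed by -4.49, -1.39 and -1.33, while Hbb-y fell in all 3 (-5.80, -5.04 and -5.46). Ly6d and Hand2 are left out because a stage lies at the floor.

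Hbb-y fell in all 3 tissues, and the difference of the undivided mesenchyme from the parts, -0.56 (SE 0.24, adjusted p = 0.129), did not pass the test, while that of Hba-x did (-1.12, SE 0.21). Dlx4 rose by 5.14, 4.52 and 4.70, with a difference of 0.50 (SE 0.41, adjusted p = 0.443). Other genes differed by more. Atp6v0d2 rose by 6.00 in the undivided mesenchyme and by 0.91 and 0.92 in the parts (difference 5.08, adjusted p = 1.63e-08). Scg2 rose by 5.75 in the undivided mesenchyme, by 3.66 in the lingual part and was at -0.15 in the buccal part (difference 3.99). Dlk1 fell by 1.94 in the undivided mesenchyme and was at 0.45 and 1.45 in the parts (difference -2.88, adjusted p = 1.96e-08). Of 14 immediate early genes, 12 differed upward and 1 downward, against 9.86% and 7.05% of all genes. Zfp36 rose by 3.81 against 1.22 and 1.17 (difference 2.62, adjusted p = 7.64e-08), and Egr1 was at 1.35 against 0.04 and -0.04 (difference 1.35).

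Levels at each stage were set side by side after normalizing the 18 libraries together. Cap_W lay below all 6 libraries of the parts in 3652 of 22836 genes (16.0%) and above all of them in 2882 (12.6%), whereas Bell_W lay below in 2205 (9.66%) and above in 2123 (9.30%). The immediate early sum was 1397 to 1778 CPM in Cap_W, 4492 to 4619 CPM in Cap_L and 4416 to 4516 CPM in Cap_B, and 3480 to 6302 CPM in Bell_W against 6441 to 6610 CPM and 5980 to 6130 CPM in Bell_L and Bell_B. Zfp36 averaged 24.3 CPM in Cap_W, 222 CPM in Cap_L and 172 CPM in Cap_B, and 343 CPM, 520 CPM and 384 CPM at the bell stage. In these sums the cap libraries of the undivided mesenchyme stood apart from both parts and the bell libraries less so. The endothelial sum was also lowest in Cap_W among the cap groups, with 275 to 286 CPM in Cap_W, 674 to 684 CPM in Cap_L and 605 to 611 CPM in Cap_B. At the bell stage it was 559 to 651 CPM in Bell_W, 824 to 859 CPM in Bell_L and 759 to 770 CPM in Bell_B. The macrophage sum was likewise lowest in Cap_W among the cap groups, with 56.5 to 65 CPM in Cap_W, 113 to 116 CPM in Cap_L and 123 to 127 CPM in Cap_B. The osteoclast sum was 47.9 to 86.8 CPM in Cap_W against 259 to 272 and 141 to 145 CPM, and the adult globin sum 1264 to 1955 CPM against 2502 to 3114 and 2923 to 3029 CPM. The sum of mineralized tissue genes was 709 to 890 CPM in Cap_W against 2035.0 to 2060.9 and 1872.5 to 1894.4 CPM. The embryonic globin sum was higher in Cap_W, at 842 to 1091 CPM against 443 to 500 and 516 to 535 CPM.

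Some named genes had levels outside the range of both parts at both stages. Fgf3 averaged 0.617 CPM in Cap_W, 6.17 CPM in Cap_L and 1.64 CPM in Cap_B, and 32 CPM, 8.68 CPM and 14.1 CPM in Bell_W, Bell_L and Bell_B. Tbx15 averaged 40.3, 52.3 and 269 CPM at the cap stage and 1.8, 20.1 and 107 CPM at the bell stage in the same order. Peg10 averaged 732, 347 and 209 CPM and then 79.4, 152 and 180 CPM. Which libraries were dissected and prepared together is not given in the sources used here, so that tissue and library set cannot be told apart in these comparisons. Skeletal muscle genes were highest in the buccal part, with a sum of 314 to 332 CPM in Cap_B and 1283 to 1323 CPM in Bell_B. Their sum was 28.5 to 29.9 CPM in Cap_L and 162 to 173 CPM in Bell_L. In the undivided mesenchyme it was 21.2 to 28.4 CPM in Cap_W and 13.9 to 28.7 CPM in Bell_W.

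**Figure D5:**
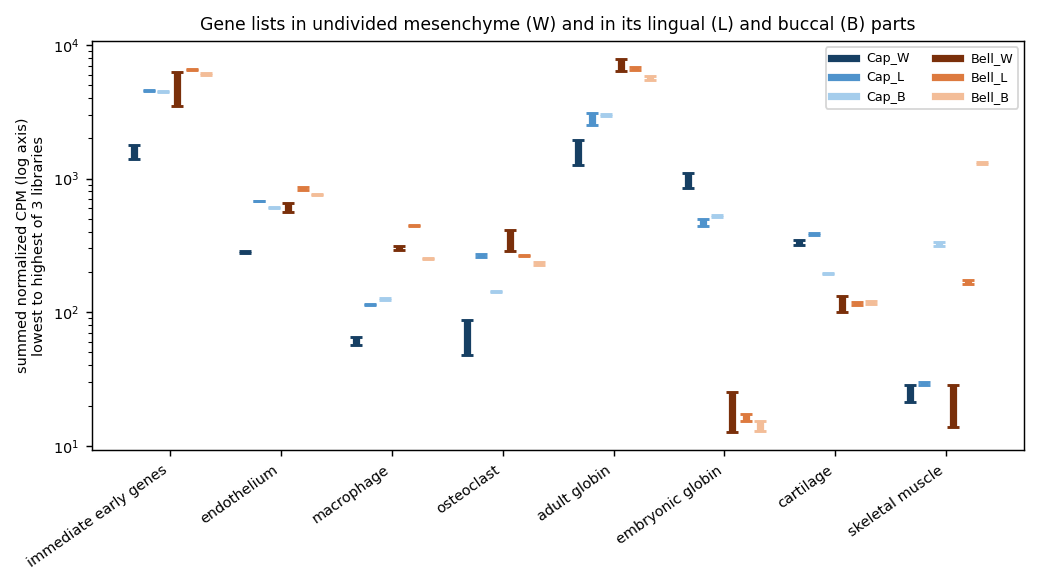
Summed normalized CPM of gene lists on a log scale in the undivided mesenchyme and in the 2 parts, by stage, with each bar running from the lowest to the highest of 3 libraries. Cap_W lies below Cap_L and Cap_B for immediate early, endothelial, macrophage, osteoclast and adult globin genes and above them for embryonic globin genes.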

How the data were processed

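The deposited table holds raw counts of read pairs for 56748 genes in 24 libraries of 8 groups, as the authors counted them. Per the file headers these counts were made by featureCounts 2.0.0 over the exons of the Ensembl GRCm39 annotation, release 107, ignoring strand and leaving out pairs that matched several places or genes. The submitters' processing notes name FastQC 0.12.1, Trimmomatic 0.39, Bowtie 1.2.3, Subread 2.0.3 and DESeq2 1.40.2, and a SMARTER library kit is named in the labels, whereas the study's methods name a stranded TruSeq kit and STAR, so the aligner and kit are uncertain. Genes that overlap on either strand or have near-identical copies are undercounted. Symbols were taken from GENCODE vM39 and matched 56017 genes.

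Libraries of the undivided mesenchyme held 20581720 to 29233888 counts. The floor of 3 counts per library came to 0.0993 to 0.168 normalized CPM and covers counting error only. Groups came from the labels. The 6 libraries were fitted with edgeR 4.0.16 in R 4.3.3 (TMM normalization, filterByExpr, quasi-likelihood test, Benjamini-Hochberg adjustment), without the replicate number as a block, since the correlations of same-numbered libraries were 0.073, 0.090 and 0.095, below the 0.1 taken as pairing. Standard errors are the size of the log2 fold change over the square root of F. The stage change was compared with that of the parts in 1 fit of 18 libraries. Scripts were tested on simulated data. Alternatives were RLE normalization, DESeq2 1.42.0, limma 3.58.1 with voom quality weights, other filters and thresholds, all 24 libraries in 1 fit, and libraries left out.

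The 45 gene lists, the comparisons and the naming rules were chosen with earlier results of these data known. Named are the 10 genes each way of largest change that were called in every fit with 1 library left out, did not overlap between stages and averaged a log2 CPM of 2 or more, up to 4 called members and the defining markers of each list, the 5 genes each way that set a library most apart, and the 5 genes each way that differed most from the parts, with further members given to describe a list. The report names only some of the genes that set libraries apart. Results for some of the genes that the rule names are not reported here. Promoters are the 300 bases before the start of the canonical transcript in GRCm39. The cultured libraries, imaging and RT-qPCR were not analysed here.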

Additional observations from a re-analysis of the deposited data

Results flagged for a closer look

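The change from cap to bell differed between the undivided mesenchyme and the mean of the lingual and buccal parts in 24 of the genes named for their size, by the test of the difference over 18 libraries (edgeR, adjusted p under 0.05). The values below are differences of log2 fold changes, undivided minus parts, and 1 dispersion per gene was shared by all 18 libraries although the undivided libraries varied more. Groups of 3 libraries were not screened by a test for outlying samples, and none was left out of the main fit. In the fit of the 6 undivided libraries the voom quality weights were 0.252 for Cap_W1 and 0.281 for Bell_W3, against 1.25 to 2.65 for the others.

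Among genes that rose in the undivided mesenchyme, the difference was 5.08 for Atp6v0d2, 3.99 for Scg2, 3.78 for Fgf3, 3.34 for Gldn, 2.93 for Rem1, 2.56 for Mmp13 and 2.11 for Ltbp2. Without Cap_W2 it was 5.73 for Atp6v0d2, and no value is given for Gldn and Mmp13, since their other Cap_W libraries held no more than 3 counts each. Among genes that fell, it was -3.13 for Tbx15, -2.80 for Nr5a2, -2.50 for Peg10, -2.43 for Tspan8, -2.13 for Col9a1, -1.69 for Alx4 and -1.12 for Hba-x. For Alx4 it was -1.06 without Cap_W2. For Hand2 it was -7.80 (adjusted p = 0.0149), a value that depends on the prior count because the bell libraries lay at the floor. It was -6.31 without Cap_W2 and -9.66 without Bell_W3, and without Bell_B replicate 3 the adjusted p was 0.284.

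The genes with the largest differences of all were low ones. Gbp6, an interferon-induced GTPase gene, differed by 7.56, being at 0 in all Cap_W libraries and at 0.937, 1.02 and 0.991 CPM in Bell_W. Other genes overlap 29% of the exon bases of Gbp6. Ptprn, a gene of secretory granules, differed by 5.51, averaging 0.465 CPM in Cap_W and 3.52 CPM in Bell_W, against 4.67 and 1.51 CPM in Cap_L and Cap_B and 0.497 and 0.367 CPM in Bell_L and Bell_B. The unnamed transcript 4930470H14Rik differed by 6.72 and was read in Bell_W1 alone at the bell stage, its difference being 1.44 without Bell_W1 (adjusted p = 1) and 10.03 without Cap_W2. Mcpt8, a basophil protease gene, differed by 5.67 and lost its call without Cap_L replicate 1 or Cap_L replicate 2 (adjusted p = 0.0548 and 0.0555).

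In the other direction, Gm10503 differed by -9.77. It stood at 3.96, 4.94 and 1.61 CPM in Cap_W and at 0, 4.75 and 5.39 CPM in Bell_W, while at the cap stage 1 of the 6 libraries of the parts held any count. The muscle genes Ckm and Mybph differed by -7.85 and -7.58, with Mybph at 17.4 CPM on average in Bell_B and at 0 in every Bell_W library (-6.63 for Mybph without Cap_W2). Other genes overlap 21.4% of the exon bases of Ckm and 49.9% of those of Mybph. Prok2, a secreted signal gene, differed by -7.11 and averaged 0.836 CPM in Cap_W with none in Bell_W. Where a group lies at the floor, as in Gbp6, Mcpt8, Mybph, Ckm, Gm10503 and Prok2, the fitted difference depends on the prior count and is no bound.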

How the results depend on the processing

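Each alternative covered 434 to 478 of the 478 named and listed genes, and none of those called, with all libraries or under the alternative, changed direction between them. Genes that were not called did change sign, among them Sfrp4 (-0.87, or 1.38 without Cap_W2) and Stmn2 (0.57, or -1.81 without Bell_W3). The calls for Bell_W against Cap_W, 2155 higher and 882 lower, became 3864 and 2023 with all 24 libraries in 1 fit, 1210 and 369 at an adjusted p under 0.01, 1566 and 295 at a log2 fold change over 1, 2924 and 1659 with voom quality weights, 2420 and 1135 with DESeq2, and 516 and 95 without Cap_W1 and Cap_W2, which leaves Cap_W3 assumed to vary like the bell libraries. Leaving out 1 library gave 1327 to 2112 higher and 431 to 948 lower. With the replicate block the calls were 1949 and 842, and although the numbers did not pair the libraries by the limit set, 6 of 6 libraries correlated best with their own number. At a log2 fold change over 1 the parts gave 1519 and 370 calls (lingual) and 1188 and 424 (buccal). The difference test, 2252 higher and 1609 lower, gave 1294 and 813 at an adjusted p under 0.01, 2976 and 3019 without Cap_W2 and Bell_W3, 2625 and 2280 with voom quality weights (an alternative chosen after seeing the data), and 1916 to 2622 and 1317 to 2283 with 1 library left out. Of 1620 counts of list members under alternatives, 1364 stayed within 1.5 times and 256 did not. The causes were not tested. Depth limits genes near the floor of 3 counts per library.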
